A study of Mus musculus with 18 samples.

Results

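The subject is 96 genes of the enzyme families that chemically modify and conjugate foreign compounds, read in colorectal tissue and tumor organoids of mice with and without RNF138. They are every gene of the count table, 96 of 36757, whose symbol begins with the stem of 1 of 12 families and names no pseudogene. The families are Ces1 (8 genes), Ces2 (7), Cyp2 of the subfamilies a, ab, b, d, e, f, j and s (27), Cyp3a (7), Ugt1a (9), Ugt2 (6), Sult (11), Gsta (4), Gstm (7), Gstp (3), Gstt (4), and Gsto with Gstk (3). The rule reads symbols and no expression value, but it was chosen with earlier results of these data known. RNA-seq was made from 18 samples of C57BL/6 mice, male and female, in 6 groups of 3. RNF138fl/fl mice, labelled wild type and called control here, were set beside RNF138-/- mice in a colitis model, a colitis-associated cancer (CAC) model and organoids. RNF138 is a RING finger ubiquitin ligase, and the comparison asks how its loss alters inflamed and cancerous colon. In the colitis groups, mice of 6 to 8 weeks of age drank 2% dextran sodium sulfate (DSS), which injures the colonic epithelium, for 7 days followed by 14 days of water, in repeated cycles. They were killed 4 weeks after the last one. The CAC groups first received 10 mg/kg of the colon carcinogen azoxymethane (AOM) intraperitoneally and began the DSS cycles 4 days later. The organoid groups were grown in matrigel from tumor-bearing intestinal fragments of CAC mice. All 18 samples thus saw DSS directly or through the mouse of origin, and no untreated colon was among them. The colitis and CAC samples are pieces of dissected colon tissue that hold several cell types. The CAC samples are called tumors below for short. Neither their titles nor the paper says that tumor alone was taken, and their tumor content was not measured.

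Foreign compounds are usually handled in steps. Cytochrome P450 enzymes (Cyp) insert oxygen and carboxylesterases (Ces) split esters and amides, which exposes a reactive group. UDP-glucuronosyltransferases (Ugt), sulfotransferases (Sult) and glutathione S-transferases (Gst) then attach glucuronic acid, sulfate or glutathione, and transporters carry the product out of the cell. In the gut these enzymes are known mainly from mature absorptive cells of the epithelium. Many are under the control of the nuclear receptors PXR (Nr1i2), CAR (Nr1i3) and HNF4A, of the aryl hydrocarbon receptor (Ahr), and of NRF2 (Nfe2l2), which answers oxidative stress.

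Total counts ran from 11514716 to 24390082 per sample, with a median of 17332367. Nothing in the labels ties replicates to separate mice, so p-values measure the spread between these samples only. Rnf138 itself was not lower in the samples labelled RNF138-/-. In CAC tumors it was higher, at 27.6, 27.3 and 21.5 CPM (counts divided by the scaled library size) in control and 39.7, 45.4 and 45.8 CPM in RNF138-/- samples (log2 fold change 0.72 ± 0.14, edgeR adjusted p = 0.0426). It did not fall in colitis or organoids (log2 fold change -0.06 ± 0.22 and -0.1 ± 0.16). The cause of the rise was not tested. A count over the whole gene need not show a deletion of part of it, and the genotype is given as labelled. The 3 measured distal colon markers (Hoxb13, Hoxd13 and Hoxd12) summed to 4.92 and 7.95 CPM in RNF138-/- colitis samples 2 and 3 and to 5.59 CPM in control CAC sample 3, against 80.4 to 361 CPM in the other 15 samples. These 3 samples stand apart below. The control organoids held Xist at 391, 393 and 464 CPM and no read of the Y-linked Ddx3y, while the RNF138-/- organoids and all 12 tissue samples showed the reverse, so sex and genotype cannot be told apart in the organoids.

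Together the 96 enzymes took 3967, 3516 and 4388 CPM in control colitis and 3485, 4464 and 4994 CPM in RNF138-/- colitis. In CAC they took 2716, 2119 and 5832 CPM in control and 1316, 1224 and 1192 CPM in RNF138-/- tumors. The RNF138-/- tumors were the lowest of the 6 groups, with no overlap with any other, and control CAC sample 3 was the highest single sample. The organoids were at 2499, 3887 and 2772 CPM in control and 1990, 1706 and 1937 CPM in RNF138-/- samples, which did not overlap. The make-up differed as well. In control colitis the sulfotransferases, Ces2 carboxylesterases and Cyp2 enzymes held 17.95%, 15.3% and 12.9% of the members' CPM. In control organoids these shares were 1.28%, 0.969% and 3.42%, and the leading families were Ugt2 with 25.7%, Gstp with 22.6% and Gstm with 18.3%.

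**Figure D1:**
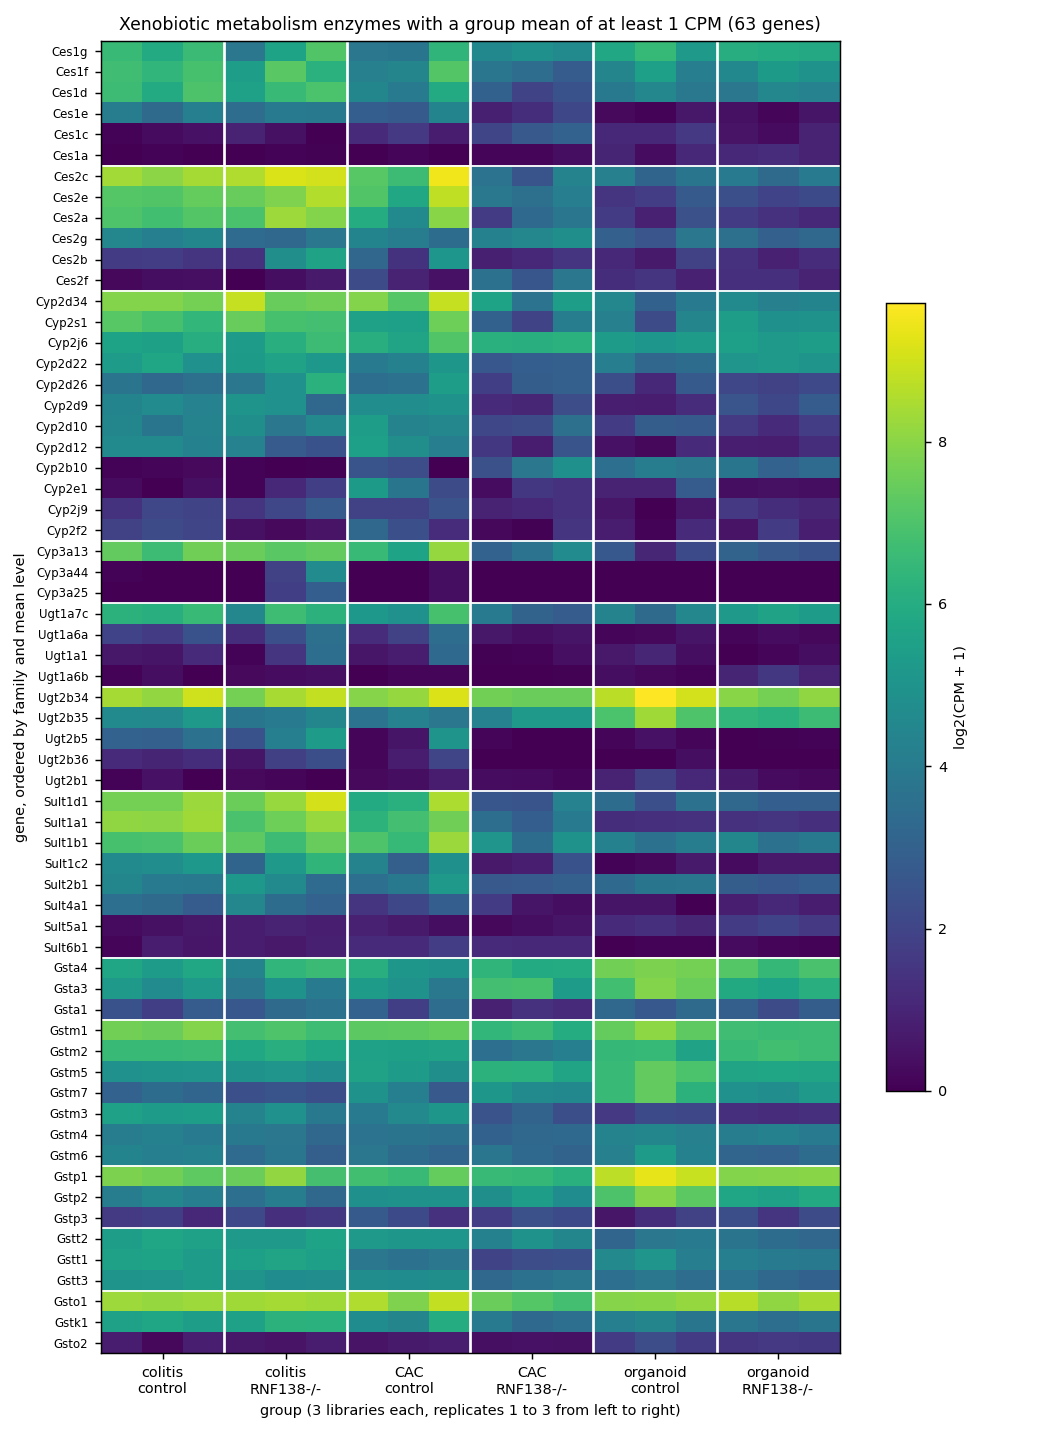
Heat map of log2(CPM + 1) for the 63 enzymes with a mean of at least 1 CPM in at least 1 group (rows, by family and level) in the 18 samples (columns, 3 per group). Ces2c, Cyp2d34, Cyp3a13 and Sult1a1 are brighter in colitis and control CAC than in RNF138-/- CAC and all organoids, while Gsta3, Gstm5, Gstm7, Gstp1 and Gstp2 have their highest group mean in control organoids.

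Of the 96 genes, 33 stayed below a mean of 1 CPM in every group, among them the main hepatic enzyme Cyp3a11 and the estrogen sulfotransferase Sult1e1, and 40 reached 1 CPM in every group. By family, 15 of 27 Cyp2 genes, 5 of 9 Ugt1a genes and 4 of 7 Cyp3a genes were below that level throughout. All 7 Gstm and all 3 Gstp genes were above it in every group. A total of 21 genes reached 100 CPM in some group. Levels of different genes can be set side by side as CPM per kilobase of exon. On that scale the leading enzymes of control colitis were Sult1a1, a phenol sulfotransferase (187), Gsto1, an omega-class transferase (149.6), Gstm1 of the mu class (139) and the carboxylesterase Ces2c (134). In control organoids the order began with Gstp1, the pi-class transferase (333 CPM per kilobase), followed by Gsta4, which conjugates products of lipid peroxidation (163), and Gstp2 (156). Sult1a1, first in colitis, was at 1.44, 1.52 and 1.62 CPM in the control organoids. Some members share sequence with a near relative, and the counting could have split their reads. Windows of 50 bases shared with another gene made up 90.5% of Gsta1, 80.2% of Ugt1a1, 79.8% of Ugt1a6b, 53.7% of Ugt1a7c, 54.3% of Gstp2, 33.7% of Gstp1, 36.1% of Ces2c and 35.8% of Cyp2d10, so their values are uncertain to that extent.

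**Figure D2:**
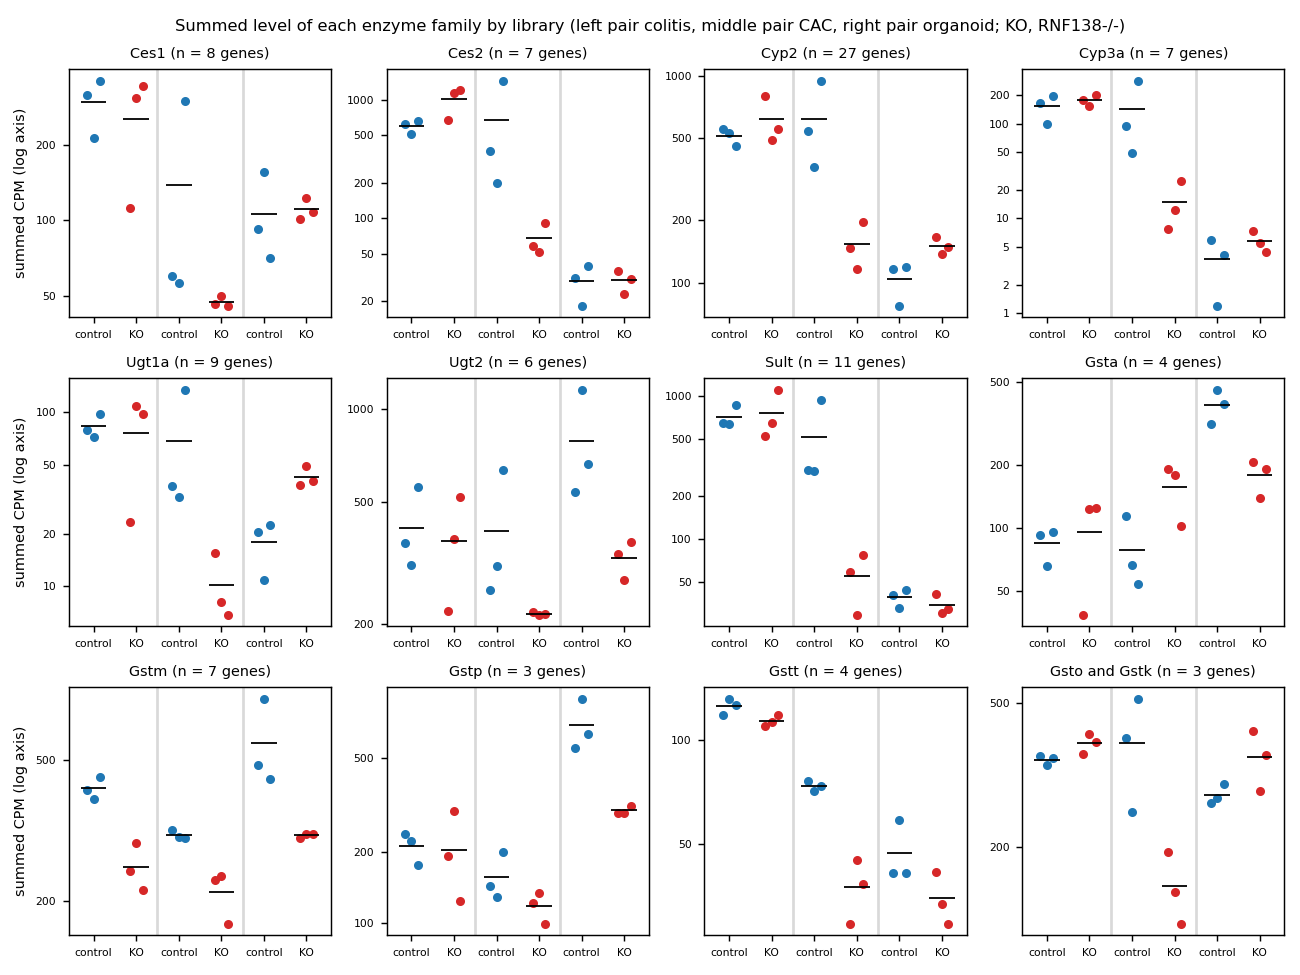
Summed CPM of each enzyme family in every sample, on log axes (points, samples; lines, group means; blue, control; red, RNF138-/-). In CAC the 3 RNF138-/- samples lie below the 3 control samples for Ces2, Cyp2, Cyp3a, Ugt1a, Sult and Gstt, among others, while for Gsta 2 of them lie above all controls; in organoids Gsta, Gstm, Gstp and Ugt2 are lower and Ugt1a is higher in RNF138-/-.

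In colitis the genotypes differed at 1 enzyme. A gene is said to have passed, here and below, when its edgeR adjusted p was under 0.05 and its fold change 2 or more. Of 54 members with enough reads to be tested, 0 were higher and 1 was lower in RNF138-/- tissue, where 0.018% and 0.0722% of all 16623 genes tested passed in these directions. On the unadjusted p with the same fold, 3 members were higher (background 3.06%) and 3 lower (background 1.41%). Cyp2f2, a P450 known from the airway, was the 1 that passed, at 2.79, 3.59 and 3.03 CPM in control and 0.359, 0.18 and 0.413 CPM in RNF138-/- samples (log2 fold change -3.27 ± 0.41, edgeR adjusted p = 0.0475). It came through the read filter by its control level alone, and it did not pass when any 1 control sample was left out, or without RNF138-/- sample 2. Without RNF138-/- sample 1, 3 members passed, 1 higher and 2 lower, and by DESeq2 4 did, 2 higher and 2 lower (background 1.24% and 0.831%).

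The 7 mu-class transferases lie together on chromosome 3 (chr3:107895821-108044894, mm10). Their median log2 fold change was -0.83, beside 0.02 for all genes tested, but none passed. Gstm1 was at 199, 177 and 237 CPM in control and 112, 131 and 102 CPM in RNF138-/- colitis (log2 fold change -0.83 ± 0.19, edgeR adjusted p = 0.19). Gstm3, next to Gstm2 in the cluster, was at 46.1, 40.3 and 41.6 CPM in control and 19, 28.7 and 14.1 CPM in RNF138-/- samples (log2 fold change -1.05 ± 0.26, edgeR adjusted p = 0.215). The groups did not overlap for either gene. The Ces2 family had a median of 0.82, was uneven among samples and did not share a direction. Ces2g was at 21.3, 17.2 and 20.7 CPM in control and 9.5, 8.5 and 13.4 CPM in RNF138-/- samples (log2 fold change -0.91 ± 0.24, edgeR adjusted p = 0.223). Ces2c was at 329, 259.7 and 339 CPM in control and 378, 575 and 529 CPM in RNF138-/- samples (log2 fold change 0.68 ± 0.23, edgeR adjusted p = 0.347). Ces2b stood at 2.23, 2.36 and 1.8 CPM in control and 1.62, 26.7 and 47.3 CPM in RNF138-/- samples (log2 fold change 3.57 ± 0.96, edgeR adjusted p = 0.239). For Ces2b the excess lay in RNF138-/- samples 2 and 3, with sample 1 at the control level. Those samples also held reads of 2 Cyp3a genes that did not pass the read filter: across RNF138-/- samples 1 to 3, Cyp3a44 was at 0, 2.64 and 24.9 CPM and Cyp3a25 at 0, 2.52 and 6.5 CPM, against at most 0.0559 CPM in control colitis. Ugt1a1, the bilirubin glucuronosyltransferase (0.0598, 1.74 and 10.4 CPM in RNF138-/- colitis), and Ugt2b5 (4.43, 17.2 and 39.99 CPM) were highest in the same samples. They are the colitis samples low in distal colon markers, and the part of position along the gut in these values was not tested.

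In RNF138-/- CAC tumors 13 of 54 tested members were lower and 0 higher, where 4.83% and 0.546% of all 17752 genes tested passed in these directions. On the unadjusted p, 32 members were lower (background 12.1%) and 4 higher (background 4.29%). The median log2 fold change was -1.82 over the tested members and 0.01 over all genes tested. For 35 of the 54 members every RNF138-/- tumor was below every control tumor (background 20.7% of genes tested), and for 5 every one was above (background 24.5%). The 13 were carboxylesterases, Cyp2d enzymes, sulfotransferases and 4 glutathione S-transferases. The edgeR count of 13 rests on few samples. It was 0 without RNF138-/- sample 1 or 2, 2 without RNF138-/- sample 3, 5 without control sample 1, and 19 without control sample 3, which stands apart, and all of these were lower. DESeq2 called 32 members lower and 4 higher, beside 10.8% and 3.15% of all genes. An edgeR fit of all 18 samples called 35 lower and 4 higher, beside 10.9% and 3.76%.

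**Figure D3:**
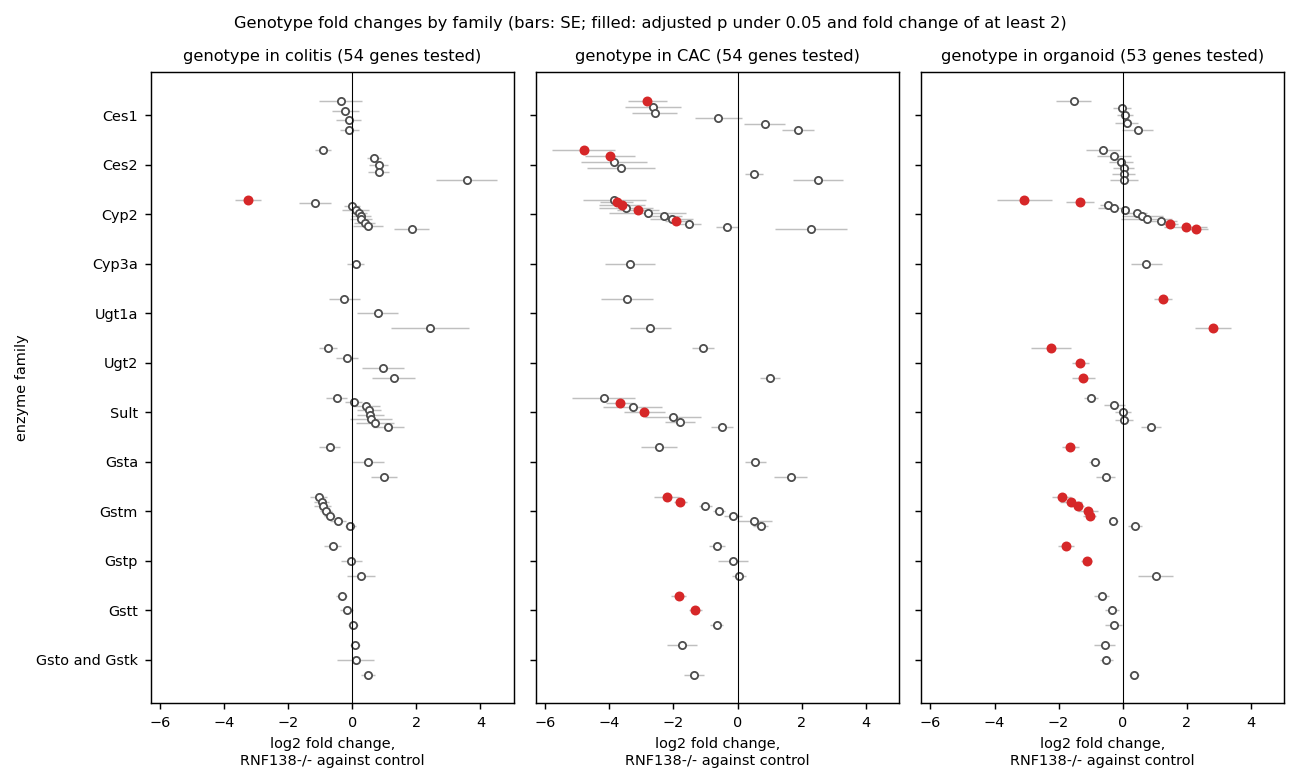
Log2 fold change of RNF138-/- against control (x axis) for every tested enzyme, by family (y axis), in colitis, CAC and organoids; bars are SE and filled points passed the test. In CAC most points of Ces2, Cyp2, Cyp3a, Ugt1a, Sult and Gstt lie left of 0, and in organoids the filled points of Ugt2, Gsta, Gstm and Gstp lie left and those of Ugt1a right.

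Among the esterases, Ces2c was at 144, 100.2 and 714 CPM in control and 12.1, 4.78 and 19.2 CPM in RNF138-/- tumors, a 27.9-fold fall (log2 fold change -4.8 ± 0.97, edgeR adjusted p = 0.0435). Its neighbour Ces2e fell from 132, 54.7 and 441 to 13.8, 11.1 and 16.8 CPM (log2 fold change -3.98 ± 0.79, edgeR adjusted p = 0.0418). Ces1d, which hydrolyses lipid and drug esters, fell from 21, 15.1 and 60.8 to 7.02, 2.96 and 4.44 CPM (log2 fold change -2.81 ± 0.62, edgeR adjusted p = 0.0498). Control sample 3 was the highest for all 3 genes, and controls 1 and 2 also lay above every RNF138-/- tumor. Without control sample 3 the log2 fold changes were -3.38 for Ces2c, -2.77 for Ces2e and -1.94 for Ces1d, which all still passed. Ces2a, at 63.1, 23.3 and 253 CPM in control and 2.29, 9.07 and 13 CPM in RNF138-/- tumors, did not pass (log2 fold change -3.86 ± 1.03, edgeR adjusted p = 0.0661). The Ces2 genes stand side by side on chromosome 8 (chr8:104734003-105021178, mm10) but did not share a direction. Ces2f was at 3.63, 0.941 and 0.379 CPM in control and 11.2, 4.98 and 13.3 CPM in RNF138-/- tumors (log2 fold change 2.5 ± 0.78, edgeR adjusted p = 0.0857). Ces2g was at 19.8, 15.7 and 9.85 CPM in control and 18.4, 21.3 and 27.8 CPM in RNF138-/- tumors, which overlapped. Ces1c, a carboxylesterase known from plasma, likewise had a fitted value above 0, with 1.29, 2.07 and 0.663 CPM in control and 3.03, 5.63 and 7.29 CPM in RNF138-/- tumors (log2 fold change 1.9 ± 0.5, edgeR adjusted p = 0.0634). Neither Ces2f nor Ces1c passed, and for both every RNF138-/- tumor was above every control.

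Of the P450 families, 4 Cyp2d genes of the chromosome 15 cluster (chr15:82370527-82794294, mm10) fell. Cyp2d34, the most abundant of them, was at 236, 141 and 466 CPM in control and 48.9, 12 and 41.4 CPM in RNF138-/- tumors (log2 fold change -3.1 ± 0.66, edgeR adjusted p = 0.0476). Cyp2d9 went from 25.9, 26.2 and 30.5 to 1.28, 1.05 and 3.94 CPM (log2 fold change -3.77 ± 0.53, edgeR adjusted p = 0.0272). Cyp2d12 fell by 3.61 and Cyp2d22 by 1.91 on the log2 scale. Control and RNF138-/- tumors were separate for each of the 4. The Cyp2d34 value was -2.495 without control sample 3, and without RNF138-/- sample 3 those of Cyp2d9 and Cyp2d12 were -4.59 and -4.49, with Cyp2d12 no longer passing. Cyp3a13, the gut form of the family that clears many drugs, did not pass, at 95, 49 and 284 CPM in control and 7.23, 12 and 24.7 CPM in RNF138-/- tumors (log2 fold change -3.35 ± 0.78, edgeR adjusted p = 0.0529). Cyp2s1, an epithelial P450, was likewise outside the threshold, at 46.4, 43.9 and 189 and 7.18, 2.96 and 16.2 CPM (log2 fold change -3.48 ± 0.85, edgeR adjusted p = 0.0577). Both genes were lower in every RNF138-/- tumor than in every control. Cyp2j6, an arachidonic acid epoxygenase, lay at 69.2, 50.2 and 134 CPM in control and 71.1, 66.3 and 73.1 CPM in RNF138-/- tumors and overlapped. Cyp2b10, the classic CAR target, was at 4.8, 3.95 and 0 CPM in control and 4.31, 13.2 and 28.2 CPM in RNF138-/- tumors (log2 fold change 2.3 ± 1.12, edgeR adjusted p = 0.196), with no read in control sample 3.

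Of the sulfotransferases, Sult1a1 was at 77, 111 and 194 CPM in control and 10.4, 6.48 and 14.8 CPM in RNF138-/- tumors, a 12.6-fold fall (log2 fold change -3.65 ± 0.47, edgeR adjusted p = 0.0245). Sult1b1, which sulfates thyroid hormones and phenols, went from 131, 88.8 and 305 to 32.8, 9.72 and 30.4 CPM (log2 fold change -2.91 ± 0.64, edgeR adjusted p = 0.0491), or -2.21 without control sample 3. Sult1d1, a neighbour of Sult1b1 on chromosome 5, was at 60.7, 70.1 and 365 and 5.1, 4.74 and 18.8 CPM and did not pass (log2 fold change -4.18 ± 0.97, edgeR adjusted p = 0.0529). For all 3 the tumors separated by genotype. None of the 4 glucuronosyltransferases tested passed. Ugt1a7c was at 35.3, 29.1 and 115 CPM in control and 14.9, 7.57 and 6.02 CPM in RNF138-/- tumors (log2 fold change -2.72 ± 0.65, edgeR adjusted p = 0.0548). Ugt2b34, the most abundant member of its family, was at 245, 289 and 584 and 198, 176 and 177 CPM (log2 fold change -1.08 ± 0.35, edgeR adjusted p = 0.0917). Ugt2b35, a near neighbour, had a fitted value above 0, with 11.8, 18.9 and 13.5 CPM in control and 18.9, 37.2 and 37.3 CPM in RNF138-/- tumors.

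Among the glutathione S-transferases, 2 of 3 theta-class genes and 2 of 7 mu-class genes fell, and none of 3 alpha-class and 3 pi-class genes passed. Nor did omega-class Gsto1, at 375, 228 and 452 CPM in control and 178, 141 and 111 CPM in RNF138-/- tumors (log2 fold change -1.35 ± 0.31, edgeR adjusted p = 0.0513). Gstk1 did not pass either (log2 fold change -1.72 ± 0.47, edgeR adjusted p = 0.0683). For Gsto1 and Gstk1 every RNF138-/- tumor was below every control. Gstt1, which acts on small halogenated compounds, was at 13.5, 11.2 and 13.3 CPM in control and 2.92, 3.89 and 4.16 CPM in RNF138-/- tumors (log2 fold change -1.84 ± 0.22, edgeR adjusted p = 0.0221). Gstt3 was at 26.4, 25.5 and 27.2 CPM in control and 8.56, 11.3 and 13.3 CPM in RNF138-/- tumors (log2 fold change -1.31 ± 0.19, edgeR adjusted p = 0.0282). Gstm2 went from 45.4, 44.4 and 46.6 to 10.7, 13.3 and 17.2 CPM (log2 fold change -1.78 ± 0.19, edgeR adjusted p = 0.0193). The control values of these 3 genes were close together, sample 3 included. Gstm3 fell from 15, 22.6 and 34.4 to 4.63, 7.53 and 4.03 CPM. Gstm1 had an adjusted p under 0.05 but a fold change just under 2, at 153, 157 and 168 CPM in control and 84.9, 99.7 and 63.5 CPM in RNF138-/- tumors (log2 fold change -0.9997 ± 0.19, edgeR adjusted p = 0.0396). Gsta3, which also takes part in steroid isomerisation, lay the other way without passing, at 38.8, 29.4 and 13.8 CPM in control and 111, 118 and 39 CPM in RNF138-/- tumors (log2 fold change 1.66 ± 0.51, edgeR adjusted p = 0.0857). Every RNF138-/- value of Gsta3 was above every control value, as was true of Gstm5 (log2 fold change 0.72 ± 0.24, edgeR adjusted p = 0.0985).

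Markers of several cell types moved with these values. The summed CPM of 8 colonocyte markers was 3030.4, 2422 and 14464 in control and 465, 182 and 353 in RNF138-/- tumors, with 3 of 8 genes lower by the test. That of 7 goblet cell markers was 14002, 26812 and 43243 in control and 2741, 2163 and 3432 in RNF138-/- tumors, with 6 of 7 lower. Smooth muscle markers (2508 to 8388 against 113 to 242 CPM, 6 of 6 lower) and B and plasma cell markers (1487 to 2256 against 124 to 213 CPM, 5 of 5 lower) were low in the RNF138-/- tumors as well. The 6 measured small intestine markers summed to 41.4, 97.9 and 1161 CPM in control and 2.66, 2.96 and 4.98 CPM in RNF138-/- tumors, with 2 of 3 tested lower. The stem and crypt markers were at 52 to 335 CPM in control and 699 to 917 CPM in RNF138-/- tumors, with none of 5 passing. The 8 general epithelial markers summed to 8311 to 14935 CPM in control and 7086 to 8414 CPM in RNF138-/- tumors. Divided by that epithelial sum in each sample, a scale chosen after seeing the data, 25 of the 54 members were lower in every RNF138-/- tumor than in every control tumor (background 7.76% of genes tested). The 13 that fell were among the 25, and they had been called in the same samples. In bulk tissue, fewer cells of a type and less RNA of a gene per cell cannot be told apart, and the part of colonocyte number in these falls was not tested.

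**Figure D4:**
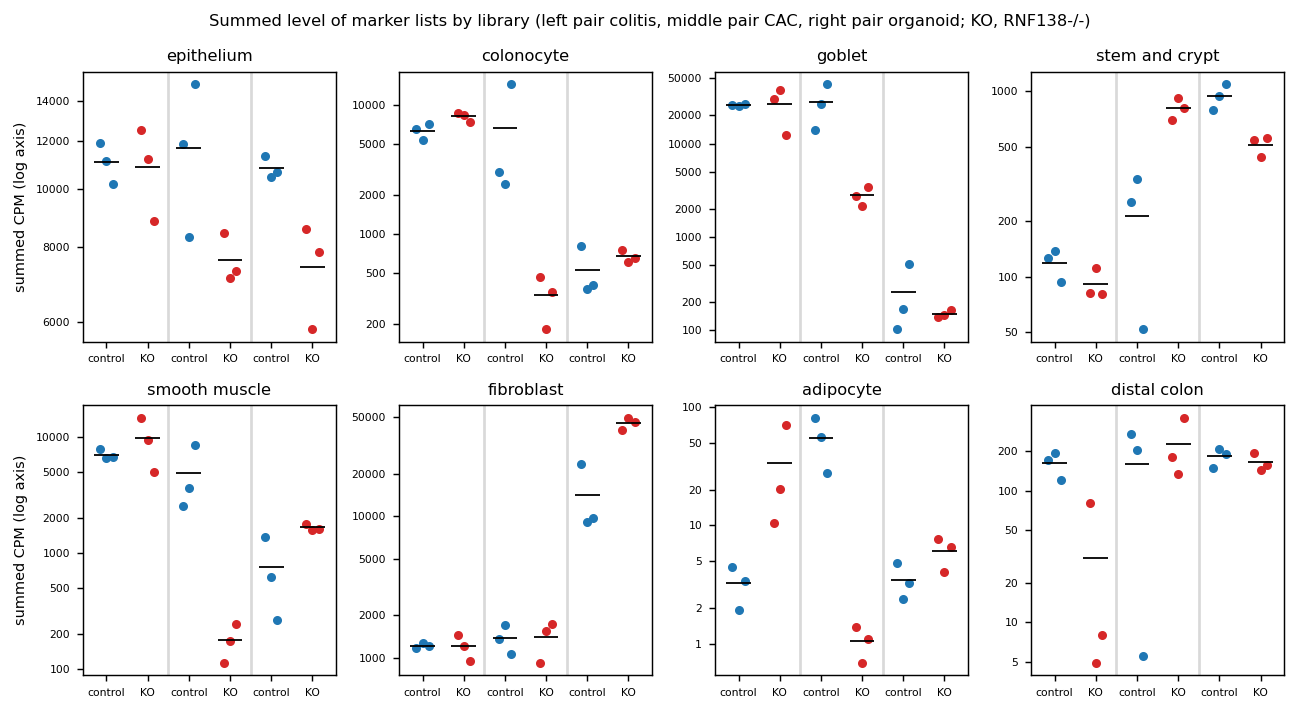
Summed CPM of 8 marker lists in every sample, on log axes (points, samples; lines, group means; blue, control; red, RNF138-/-). The 3 RNF138-/- CAC tumors are low in colonocyte, goblet, smooth muscle and adipocyte markers, organoids are high in fibroblast markers, and 3 tissue samples are low in distal colon markers.

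In RNF138-/- organoids 13 of 53 tested members were lower and 5 higher, where 7.04% and 7.94% of all 15294 genes tested passed in these directions. The median log2 fold change was -0.27 over the tested members and -0.04 over all genes tested. Of the 18, 5 had a mean of at least 1 CPM in only 1 genotype, which alone can carry a gene through the read filter: Cyp2e1 and Ugt2b1 in control, and Cyp2d9, Cyp2j9 and Ugt1a6b in RNF138-/- samples. Of the 53 members, 16 were lower in every RNF138-/- organoid than in every control (background 25.7% of genes tested) and 8 were higher (background 27.6%). The falls were in Gstm (5 of 7 genes tested), Ugt2 (3 of 3), Gstp (2 of 3), Gsta (1 of 3) and Cyp2 (2 of 12), and the rises in Cyp2 (3) and Ugt1a (2 of 2). None of the 5 Sult, 6 Ces2, 5 Ces1 and 3 Gstt genes tested passed by edgeR. Without control organoid sample 2 there were 9 calls (6 lower, 3 higher), and without RNF138-/- organoid sample 2 there were 11 (7 lower, 4 higher).

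In the mu class, Gstm7 was at 94.8, 164 and 74.1 CPM in control and 29.4, 26.3 and 36 CPM in RNF138-/- organoids, a 3.74-fold fall (log2 fold change -1.9 ± 0.29, edgeR adjusted p = 0.00337). Gstm5 went from 95.7, 165 and 125 to 50.3, 51.5 and 49.2 CPM (log2 fold change -1.39 ± 0.19, edgeR adjusted p = 0.00249). Gstm6 fell from 17.5, 39.2 and 18.1 to 7.86, 7.36 and 9.86 CPM (log2 fold change -1.62 ± 0.33, edgeR adjusted p = 0.00895), and Gstm1 and Gstm3 fell by 1.03 and 1.08 on the log2 scale. The fall did not take in the whole cluster. Gstm2, between Gstm3 and Gstm1 on chromosome 3, was at 87.1, 89 and 47.6 CPM in control and 93.2, 109 and 100.05 CPM in RNF138-/- organoids (log2 fold change 0.39 ± 0.22, edgeR adjusted p = 0.195), every RNF138-/- value above every control. Of the pi class, Gstp1 was at 421, 647 and 479 CPM in control and 236, 244 and 250.04 CPM in RNF138-/- organoids (log2 fold change -1.12 ± 0.17, edgeR adjusted p = 0.00359). Gstp2, with which it shares sequence, was at 128, 243 and 151 and 52.8, 46.2 and 59.5 CPM (log2 fold change -1.76 ± 0.24, edgeR adjusted p = 0.00248). Of the alpha class, Gsta3 went from 108, 236 and 183 to 58.7, 48.8 and 67.2 CPM (log2 fold change -1.64 ± 0.27, edgeR adjusted p = 0.00431). Gsta4 was at 199.6, 219 and 202 CPM in control and 142, 86.2 and 119 CPM in RNF138-/- organoids, short of the fold required (log2 fold change -0.88 ± 0.18, edgeR adjusted p = 0.00809).

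Several of these transferases are known targets of NRF2, which binds the antioxidant response element. Promoter windows of 300 bases (250 before to 50 after the RefSeq start, build GRCm38.p6) were therefore read for the core TGACNNNGC on either strand. RefSeq windows matched 86 of the 96 genes, 98 windows in all, and 4 of them held the core, those of Gsta3, Gstm5, Gstm7 and Cyp2j6. That is 4.08% of the members' windows, against 12.4% of all 32851 windows. The 3 transferases among the 4 each fell in RNF138-/- organoids, and their windows are printed for that reason, 5′ to 3′ with the core in capitals. A match of letters is not a bound site, and its part in the falls was not tested.

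Gsta3 (chr1:21240335-21240634, plus strand): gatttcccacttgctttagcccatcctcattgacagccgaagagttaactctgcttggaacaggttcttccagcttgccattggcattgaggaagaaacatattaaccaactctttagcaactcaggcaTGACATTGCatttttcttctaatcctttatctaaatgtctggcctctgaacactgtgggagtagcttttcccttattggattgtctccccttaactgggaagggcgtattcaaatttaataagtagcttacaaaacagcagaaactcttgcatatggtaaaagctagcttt

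Gstm5 (chr3:107895604-107895903, plus strand): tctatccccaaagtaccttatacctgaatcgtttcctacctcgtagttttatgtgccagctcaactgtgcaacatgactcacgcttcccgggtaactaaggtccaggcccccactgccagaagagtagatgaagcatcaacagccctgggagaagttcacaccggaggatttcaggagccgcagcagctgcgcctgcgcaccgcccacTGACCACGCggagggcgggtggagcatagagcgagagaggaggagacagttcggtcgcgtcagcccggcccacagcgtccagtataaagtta

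Gstm7 (chr3:107931565-107931864, minus strand): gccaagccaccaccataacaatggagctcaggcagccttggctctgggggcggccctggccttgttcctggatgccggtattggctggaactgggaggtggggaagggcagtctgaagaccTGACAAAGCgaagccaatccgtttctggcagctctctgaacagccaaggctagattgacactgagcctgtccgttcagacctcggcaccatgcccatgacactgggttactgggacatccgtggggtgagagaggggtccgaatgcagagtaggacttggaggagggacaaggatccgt

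In Gstm5 the core overlaps a match, on the opposite strand, to the core GCGTG of the aryl hydrocarbon receptor's element, which 32.4% of all windows and 20.4% of the members' windows held. The HNF4 motif CAAAGTCCA, read on either strand, was rarer, in 0.475% of all windows and in 3 of 98 member windows (3.06%), those of Cyp3a11, Cyp3a16 and Sult1b1. Of these 3 only Sult1b1 was expressed above 1 CPM, and its window is given, with the motif in capitals, because the gene fell in RNF138-/- tumors.

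Sult1b1 (chr5:87536173-87536472, minus strand): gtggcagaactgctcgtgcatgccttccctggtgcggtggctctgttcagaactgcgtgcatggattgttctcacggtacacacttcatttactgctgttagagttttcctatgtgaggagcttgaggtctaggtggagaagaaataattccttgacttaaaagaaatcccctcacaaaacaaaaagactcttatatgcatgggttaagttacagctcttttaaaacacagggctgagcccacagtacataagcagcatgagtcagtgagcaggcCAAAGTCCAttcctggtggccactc

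The Ugt2 and Ugt1a glucuronosyltransferases lie on different chromosomes. On chromosome 5 (chr5:86889767-87490871, mm10), Ugt2b34 was at 410.2, 833 and 530.01 CPM in control and 253, 206 and 269.98 CPM in RNF138-/- organoids (log2 fold change -1.33 ± 0.26, edgeR adjusted p = 0.00758). Ugt2b35 went from 124, 322 and 129.9 to 83.3, 71.9 and 98.3 CPM (log2 fold change -1.23 ± 0.36, edgeR adjusted p = 0.0313). Ugt2b1, a gene of low level here, fell by 2.23 on the log2 scale. Ugt1a7c is from the locus on chromosome 1 whose genes share their last exons (chr1:88055388-88220002, mm10). It rose from 19.4, 9.18 and 21.6 to 37.1, 46.6 and 38.7 CPM (log2 fold change 1.25 ± 0.28, edgeR adjusted p = 0.0112), and Ugt1a6b rose from 0.288, 0.16 and 0.0675 to 0.983, 1.96 and 0.971 CPM. Ugt1a1, of the same locus and too low to be tested, was at 0.577, 1.04 and 0.27 CPM in control and 0, 0.106 and 0.299 CPM in RNF138-/- organoids. Without control sample 1 the log2 fold change of Ugt1a6b was 3.47, and without RNF138-/- sample 1 that of Ugt2b1 was -3.02. Because of the shared exons, which Ugt1a gene the reads came from is uncertain. The sum over the 9 genes was 20.4, 10.9 and 22.4 CPM in control and 38.3, 49 and 40.1 CPM in RNF138-/- organoids, without overlap. Among the P450s, Cyp2d9 rose from 0.75, 0.718 and 1.35 to 4.91, 3.28 and 6.12 CPM (log2 fold change 2.29 ± 0.38, edgeR adjusted p = 0.00417). Cyp2d22, of the same cluster, rose from 16.8, 8.3 and 9.85 to 32.6, 36.5 and 31.9 CPM (log2 fold change 1.49 ± 0.24, edgeR adjusted p = 0.00408), and Cyp2j9 rose by 1.96 on the log2 scale. Cyp2d10 fell from 2.25, 6.22 and 5.73 to 2.18, 1.27 and 2.39 CPM (log2 fold change -1.33 ± 0.44, edgeR adjusted p = 0.0474), with an overlap between its highest RNF138-/- and its lowest control sample.

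The organoid samples were not of equal make-up. The 8 epithelial markers summed to 11344, 10448 and 10659 CPM in control and 8556, 5822 and 7841 CPM in RNF138-/- organoids, with 1 of 8 lower by the test. The 6 fibroblast markers summed to 23238, 9098 and 9748 CPM in control and 40427, 49682 and 46245 CPM in RNF138-/- organoids, with 5 of 6 higher, against 924 to 1733 CPM in the tissue samples. The organoids thus held far more RNA of these markers than the tumors did. Divided by the epithelial sum of each sample, 8 of the 53 members were lower in every RNF138-/- organoid than in every control (background 4.62% of genes tested), and 17 were higher (background 54.6%). Of the 13 enzymes that fell, 7 kept the genotypes apart on this scale, having been called in the same samples. Every RNF138-/- organoid had a lower epithelial sum than every control, so a gene already higher in all of them stays apart by construction, as the 5 that rose did. The hepatocyte list, nearly all of it albumin (Alb), was at 486, 2016 and 592 CPM in control and 272, 258 and 301 CPM in RNF138-/- organoids. The part of cell make-up in these differences was not tested, and sex cannot be told apart from genotype.

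**Figure D5:**
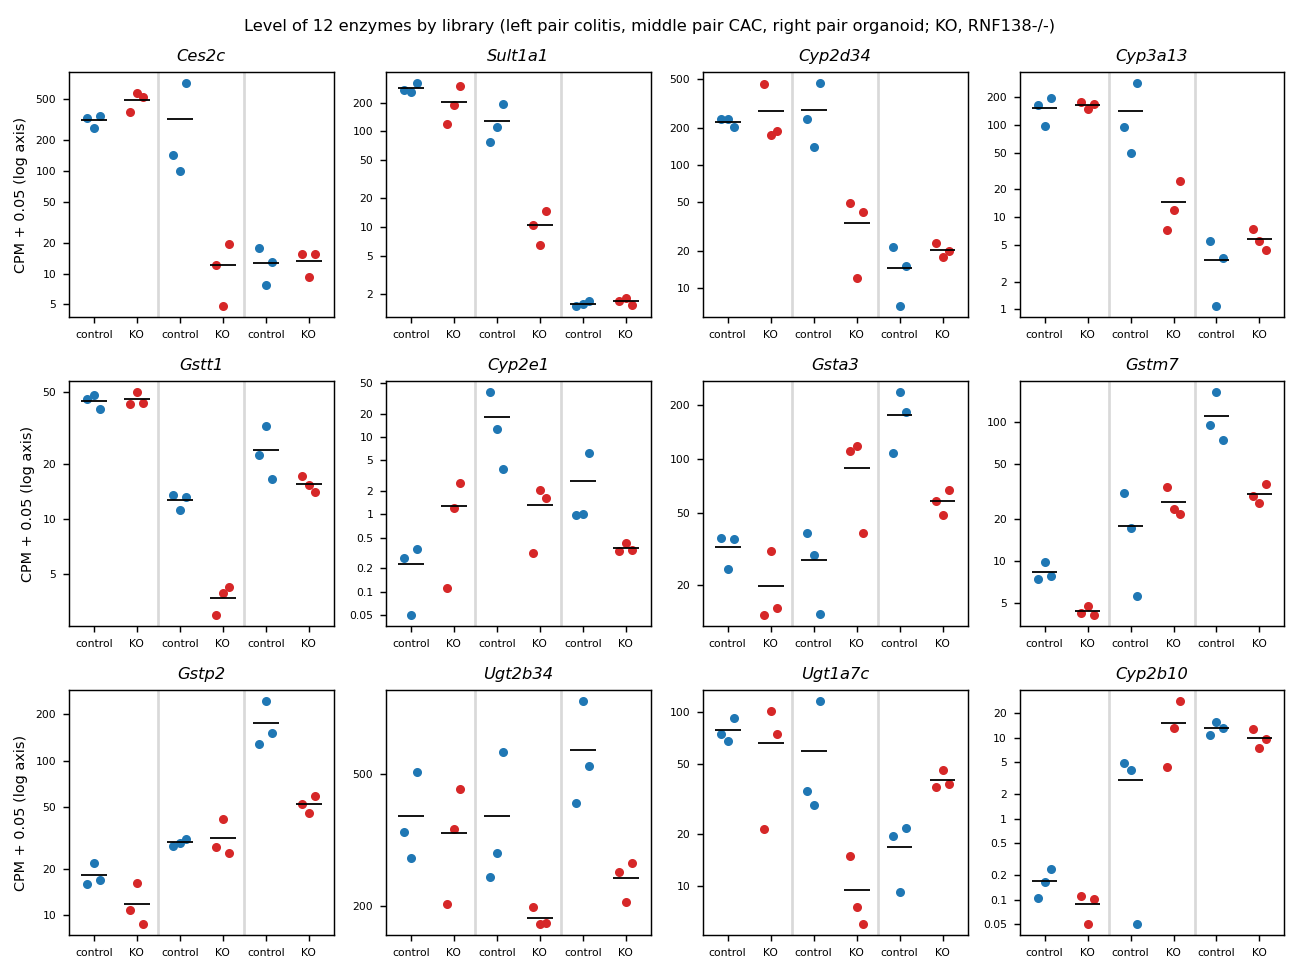
CPM + 0.05 of 12 enzymes in every sample, on log axes (points, samples; lines, group means; blue, control; red, RNF138-/-). Ces2c, Sult1a1, Cyp2d34 and Cyp3a13 are lower in RNF138-/- than in control CAC and low in all organoids, Gsta3, Gstm7, Gstp2 and Ugt2b34 have their highest group mean in control organoids, and Cyp2b10 is near 0 in colitis.

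The step from colitis to CAC was compared within each genotype, in a fit of all 18 samples with 62 members tested. In control mice 5 members were higher and 4 lower in CAC, where 9.78% and 3.81% of 19390 genes passed. Of these 9, 5 reached a mean of 1 CPM in CAC only: Cyp2b10, Cyp2e1, Ces1c, Ces2f and Sult6b1. In RNF138-/- mice 9 were higher and 37 lower, where 17.5% and 19.6% of genes passed. The members' median log2 fold change was 0.08 in control mice and -1.87 in RNF138-/- mice, beside 0.04 for all genes in each. AOM and the other differences between the models cannot be told apart. Without the 3 samples low in distal colon markers, an alternative chosen after seeing the data, the control step had 18 calls (5 higher, 13 lower). The share of all genes that passed in that sample set is not given, so this count has no background beside it. In the RNF138-/- step that set leaves 1 colitis sample. The control count was 4 without control colitis sample 1, 5 without control CAC sample 1 and 18 without control CAC sample 3.

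Cyp2b10 stood at 0.0559, 0.112 and 0.186 CPM in control colitis and 4.8, 3.95 and 0 CPM in control CAC (log2 fold change 4.61 ± 1.06, edgeR adjusted p = 0.00657), with CAC sample 3 below every colitis sample. In RNF138-/- mice it was at 0.0598, 0 and 0.0516 CPM in colitis and 4.31, 13.2 and 28.2 CPM in CAC, or 2 against 1031 counts, a ratio of 415 with a 95% counting interval of 114.5 to 3429. Without RNF138-/- colitis samples 2 and 3 that ratio was 263, on 1 count in colitis. Ces2f rose in both genotypes. Its control values went from 0.168, 0.281 and 0.31 to 3.63, 0.941 and 0.379 CPM (log2 fold change 2.7 ± 0.82, edgeR adjusted p = 0.0296), and its RNF138-/- values from 0, 0.3 and 0.619 to 11.2, 4.98 and 13.3 CPM (log2 fold change 4.93 ± 0.81, edgeR adjusted p = 0.000128). Without control CAC sample 1 the control value was 1.42 and did not pass, and without RNF138-/- colitis sample 3 the RNF138-/- value was 5.91. Ces1c rose in both as well, with log2 fold changes of 2.65 ± 0.86 and 3.68 ± 0.79. Gstt1 fell in both, from 45.5, 48.5 and 40.4 to 13.5, 11.2 and 13.3 CPM in control mice (log2 fold change -1.82 ± 0.21, edgeR adjusted p = 3.52e-05) and from 43.2, 50.01 and 43.7 to 2.92, 3.89 and 4.16 CPM in RNF138-/- mice (log2 fold change -3.63 ± 0.23, edgeR adjusted p = 1.34e-07). The other falls in control mice were Ces1d, Sult1a1 and Gstm2, with log2 fold changes of -1.59 ± 0.48, -1.15 ± 0.34 and -1.07 ± 0.21, that of Ces1d being -2.42 without control CAC sample 3. Sult6b1, a little-studied sulfotransferase of low level, rose there by 1.89 on the log2 scale.

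The 37 falls in RNF138-/- mice took in 7 of 8 tested Sult genes, 4 of 4 Ugt1a genes, 8 of 12 Cyp2 genes and 4 of 6 Ces2 genes. Of the 37, Ugt1a1, Ugt1a6a, Ugt2b5, Ugt2b36 and Sult4a1 reached a mean of 1 CPM in colitis only, and Ugt1a6b and Sult5a1 in neither group. Of the 9 rises, Ces1c, Ces2f and Cyp2b10 reached it in CAC only, and Ces1b in neither group. Ces2c was at 378, 575 and 529 CPM in RNF138-/- colitis and 12.1, 4.78 and 19.2 CPM in RNF138-/- CAC (log2 fold change -5.36 ± 0.7, edgeR adjusted p = 2.08e-05). Sult1d1 fell from 183, 291 and 534 to 5.1, 4.74 and 18.8 CPM (log2 fold change -5.13 ± 0.75, edgeR adjusted p = 5.24e-05), or -6.09 without RNF138-/- CAC sample 3. Every CAC sample was far below every colitis sample for both genes. Ugt2b5 had 1136 counts over the RNF138-/- colitis samples and 2 over the RNF138-/- tumors, a ratio of 706 (95% counting interval 195 to 5837). Ugt2b36 had 130 and 0 counts, at least 53.9-fold lower in CAC by a floor of 3 counts over the group. Without RNF138-/- colitis samples 2 and 3 the Ugt2b5 ratio was 145 (95% counting interval 38.8 to 1222; 74 against 2 counts) and Ugt2b36, with 8 counts in sample 1, was at least 10.5-fold lower. For both genes, and for Ces2b and Ugt1a1, the colitis level was highest in the samples low in distal colon markers. Without the 3 samples apart, the Ces2b log2 fold change in this step was -0.42 and no longer passed, and that of Ugt1a1 was 1.24 where it had been -4.69 ± 1.42. The 9 rises included Gsta3, from 13.6, 30.8 and 14.9 to 111, 118 and 39 CPM (log2 fold change 2.17 ± 0.45, edgeR adjusted p = 0.00079), and Gstm7, from 4.19, 4.74 and 4.08 to 34.3, 23.6 and 21.9 CPM (log2 fold change 2.62 ± 0.44, edgeR adjusted p = 0.000168).

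The genotype difference itself changed between colitis and CAC. By the interaction term, 30 of 62 members had a more negative genotype effect in CAC than in colitis (background 9.37% of 19390 genes) and 3 a more positive one (background 2.57%). Without the 3 samples low in distal colon markers the calls numbered 17 (13 more negative, 4 more positive), and without RNF138-/- CAC sample 2 they numbered 20, all more negative. For Ces2c the difference of effects was -5.41 ± 0.87 on the log2 scale (edgeR adjusted p = 0.00169). It was -4.74 ± 0.79 for Ces2e (edgeR adjusted p = 0.00203) and -3.83 ± 0.66 for Cyp2d9 (edgeR adjusted p = 0.00259). Without control CAC sample 3 the values were -4.02 for Ces2c and -3.57 for Ces2e, and without RNF138-/- CAC sample 3 that of Cyp2d9 was -4.67. Gsta3 went the other way, with 2.41 ± 0.62 (edgeR adjusted p = 0.0184).

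From CAC tumor to organoid, 13 of 62 members were higher and 30 lower in control samples, where 17.5% and 26.8% of 19390 genes passed. Among the 30, Ces1e, Cyp2d9, Cyp2d12, Cyp2f2, Cyp2j9, Sult1c2, Sult4a1, Sult6b1, Ugt1a6a, Ugt2b36 and Ugt2b5 reached a mean of 1 CPM in tumors only. Among the 13, Gsto2, Sult5a1 and Ugt2b1 did so in organoids only, and Ces1a in neither group. In RNF138-/- samples 16 were higher and 12 lower, where 17.9% and 26.5% of genes passed. There Ces1c, Ces1e and Sult6b1 reached that mean in tumors only. Ces1a, Gsto2, Sult5a1 and Ugt1a6b reached it in organoids only, and Ces1b in neither group. When libraries were scaled by total count alone, the RNF138-/- split became 10 higher and 20 lower. The step changes cell make-up, with B and plasma cell markers at 1487 to 2256 CPM in control tumors and 0.337 to 0.807 CPM in control organoids, and in control samples it also goes from Ddx3y-expressing to Xist-expressing samples. Sult1a1 fell from 77, 111 and 194 to 1.44, 1.52 and 1.62 CPM in control samples (log2 fold change -6.38 ± 0.44, edgeR adjusted p = 2.96e-08). In RNF138-/- samples it fell from 10.4, 6.48 and 14.8 to 1.61, 1.75 and 1.49 CPM (log2 fold change -2.69 ± 0.4, edgeR adjusted p = 3.32e-05). Ces2e fell in both as well, with log2 fold changes of -5.98 ± 0.68 and -1.99 ± 0.59. Cyp3a13 fell from 95, 49 and 284 to 5.42, 1.04 and 3.58 CPM in control samples (log2 fold change -5.38 ± 0.68, edgeR adjusted p = 8.15e-06). Without control CAC sample 3 these control values were -4.82 for Ces2e and -4.39 for Cyp3a13, and without control organoid sample 3 that of Ces2e was -6.66. Ces2c was at 12.1, 4.78 and 19.2 CPM in RNF138-/- tumors and 15.4, 9.16 and 15.5 CPM in RNF138-/- organoids and did not pass (log2 fold change 0.15 ± 0.6, edgeR adjusted p = 0.847).

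Gstm2 rose in the RNF138-/- step from 10.7, 13.3 and 17.2 to 93.2, 109 and 100.05 CPM (log2 fold change 2.87 ± 0.22, edgeR adjusted p = 5.93e-08). Gsto2, an omega-class transferase, rose in both genotypes, by 2.29 and 2.38 on the log2 scale. Of the genes highest in control organoids, Gstp1 rose from 108, 95.2 and 167 to 421, 647 and 479 CPM (log2 fold change 2.06 ± 0.29, edgeR adjusted p = 2.12e-05). Gstp2 rose by 2.56 and Ugt2b35 by 3.7 on the log2 scale. The genotype effect was more positive in organoids than in CAC for 21 of 62 members (background 11.4%) and more negative for 7 (background 7.54%). Cyp2d9, lower in RNF138-/- tumors and higher in RNF138-/- organoids, had a difference of effects of 6.04 ± 0.73 on the log2 scale (edgeR adjusted p = 0.000102), or 6.896 without RNF138-/- CAC sample 3. Cyp2d22, with the same signs, had one of 3.37 ± 0.44 (edgeR adjusted p = 0.000179). Gsta3, with the opposite signs, had one of -3.29 ± 0.62 (edgeR adjusted p = 0.0018).

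Cyp2e1, the P450 that activates AOM, was at 0.223, 0 and 0.31 CPM in control colitis and 0.0598, 1.14 and 2.48 CPM in RNF138-/- colitis. It stood at 37.8, 12.5 and 3.79 CPM in control tumors and 0.266, 1.98 and 1.58 CPM in RNF138-/- tumors. The tumor groups did not overlap, but the difference missed the threshold (log2 fold change -3.84 ± 0.99, edgeR adjusted p = 0.0623; exact permutation p = 0.1, two-sided, the smallest that 3 against 3 allows). It passed without control CAC sample 3, by DESeq2, without the filter on low counts and with all 18 samples. In control mice it was higher in CAC than in colitis (log2 fold change 6.64 ± 1.28, edgeR adjusted p = 0.00197), or 5.47 without CAC sample 1. Adipocytes are known to express Cyp2e1, and their 6 markers summed to 81.2, 55.7 and 27.6 CPM in control tumors, in the same order of samples as Cyp2e1. The same sum was 1.38, 0.688 and 1.09 CPM in RNF138-/- tumors, with 3 of 3 tested markers lower, and 10.4, 20.1 and 70.6 CPM in RNF138-/- colitis. The defining marker Adipoq was at 10.8, 5.88 and 1.7 CPM in control tumors and 0 in all RNF138-/- tumors, and the part of fat tissue in the Cyp2e1 level was not tested. In organoids Adipoq was at 0, 0.0798 and 0 CPM in control and 0 in RNF138-/- samples. There Cyp2e1 was at 0.923, 0.958 and 6.14 CPM in control and 0.281, 0.371 and 0.299 CPM in RNF138-/- samples (log2 fold change -3.06 ± 0.86, edgeR adjusted p = 0.0262), with sample 3 highest among the controls, and it came through the read filter by its control level alone. Without that sample the log2 fold change was -1.56. These levels describe tissue collected after the DSS cycles, not the tissue at the AOM injection.

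Other genes of the pathway, 68 regulators, cofactor enzymes, further drug-metabolising enzymes and transporters, were read from the same fits. In colitis 0 of 64 tested passed by edgeR, and 2 did by DESeq2. On the unadjusted p 3 were higher and 1 lower there (background 3.06% and 1.41%). In CAC 9 of 64 were lower and 1 higher in RNF138-/- tumors (background 4.83% and 0.546% of genes tested). On the unadjusted p 29 were lower and 1 higher (background 12.1% and 4.29%), and DESeq2 called 29, its background being 10.8% lower and 3.15% higher. The 4 regulators among the 9 were PXR, the homeobox factors Cdx1 and Cdx2 that mark intestinal identity, and the vitamin D receptor. Nr1i2 was at 66.3, 49.8 and 77.6 CPM in control and 30.04, 25.1 and 33.1 CPM in RNF138-/- tumors (log2 fold change -1.19 ± 0.21, edgeR adjusted p = 0.0343). Vdr fell from 198, 199.9 and 417 to 27.5, 29 and 68 CPM (log2 fold change -2.77 ± 0.49, edgeR adjusted p = 0.0358). Hnf4a, at 487, 538 and 855 and 308, 299 and 289 CPM, was just outside the threshold (log2 fold change -1.13 ± 0.25, edgeR adjusted p = 0.0508). The others lower were the carbonyl reductases Cbr1 and Cbr3, the microsomal transferase Mgst3, the exporter Abcb1a and the transporter Slc26a2, which supplies sulfate for conjugation. Slc26a2 was at 604, 491 and 600.1 CPM in control and 82.7, 49.7 and 111 CPM in RNF138-/- tumors (log2 fold change -2.86 ± 0.32, edgeR adjusted p = 0.0198). The 1 higher was Slc7a11, the cystine transporter that feeds glutathione synthesis, at 33.1, 22 and 8.33 CPM in control and 134, 104 and 73.1 CPM in RNF138-/- tumors (log2 fold change 2.24 ± 0.49, edgeR adjusted p = 0.0486). From colitis to CAC, 4 of 65 tested were higher and 3 lower in control mice, and 6 higher and 29 lower in RNF138-/- mice. The background for these counts was 9.78% and 3.81% in control mice, and 17.5% and 19.6% in RNF138-/- mice.

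In organoids 7 of 64 tested were lower and 1 higher in RNF138-/- samples, beside 7.04% and 7.94% of all genes tested. Of the 10 tested genes listed as targets of the aryl hydrocarbon receptor or NRF2, 2 passed, Nqo1 and Cyp1a1. Nqo1, a quinone reductase widely used as a readout of NRF2, fell from 138, 293 and 148 to 59.2, 47.7 and 55.7 CPM (log2 fold change -1.88 ± 0.29, edgeR adjusted p = 0.00351). Other NRF2 targets did not pass: Gclc, Gclm and Txnrd1, with log2 fold changes of -0.53 ± 0.11, -0.82 ± 0.13 and -0.53 ± 0.15, had an adjusted p under 0.05 but a fold under 2. The values were -0.36 ± 0.15 for Srxn1 and -0.31 ± 0.16 for Slc7a11. Hmox1, heme oxygenase, had a fitted value above 0, at 621, 386 and 230.1 CPM in control and 467, 542 and 488 CPM in RNF138-/- organoids (log2 fold change 0.24 ± 0.3, edgeR adjusted p = 0.567). Gsr, glutathione reductase, fell from 262, 393 and 352 to 152, 140.3 and 172 CPM (log2 fold change -1.16 ± 0.17, edgeR adjusted p = 0.00323). Control sample 2, the highest for Nqo1, was also the highest for Gstm7, Gstp2, Gsta3, Ugt2b35 and the hepatocyte list. The exporter Abcc2 went from 104, 162 and 99.4 to 32.1, 42.3 and 49.3 CPM (log2 fold change -1.6 ± 0.23, edgeR adjusted p = 0.00294), and Mgst1, Akr1c13, Cyp1a1 and Cdx2 were the others lower. The NRF2 gene itself, Nfe2l2, was at 336, 409.8 and 329 CPM in control and 382, 457 and 366 CPM in RNF138-/- organoids (log2 fold change 0.13 ± 0.15, edgeR adjusted p = 0.53). Por, the reductase from which all microsomal P450s draw electrons, was at 450.4, 441 and 356 and 420.1, 420.4 and 422 CPM (log2 fold change -0.02 ± 0.13, edgeR adjusted p = 0.913). The 1 higher was Ahrr, the repressor of the aryl hydrocarbon receptor, at 0.807, 0.239 and 0.405 CPM in control and 1.75, 1.64 and 1.34 CPM in RNF138-/- organoids (log2 fold change 1.61 ± 0.44, edgeR adjusted p = 0.0237). Cyp1a1, the receptor's classic target and of low level here, was at 1.5, 0.798 and 0.877 and 0.14, 0.106 and 0.299 CPM (log2 fold change -2.6 ± 0.53, edgeR adjusted p = 0.0083). The more abundant targets Tiparp and Cyp1b1 did not pass. Tiparp, a poly-ADP-ribose polymerase, was at 107, 64.9 and 76.6 CPM in control and 105, 104 and 88.4 CPM in RNF138-/- organoids (log2 fold change 0.23 ± 0.17, edgeR adjusted p = 0.337). Cyp1b1, another P450, was at 28.7, 12.3 and 24.7 and 19, 17.2 and 16.9 CPM. Between the organoid groups, Ahrr reached a mean of 1 CPM only in RNF138-/- samples and Cyp1a1 only in control samples. In this test each thus came through the read filter by its higher group alone.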

How the data were processed

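Per the labels and the study's methods, the authors prepared libraries with an Illumina TruSeq RNA kit, aligned reads to mm10 and deposited raw counts per gene for 18 samples. The submitters' processing notes name STAR 2.6.1d, HTSeq 0.11.2 and DESeq2, while the methods name Cufflinks and Gencode annotation; strand use was not given in the sources used here. The deposited counts were tested with edgeR 4.0.16 (quasi-likelihood, TMM, filterByExpr by group; R 4.3.3) on all genes, with Benjamini-Hochberg adjustment, and called where the adjusted p was under 0.05 and the fold 2 or more. Genotype was tested in the 6 samples of each model; the other contrasts and interactions used all 18. CPM are scaled by TMM over all 18 samples, so their ratios differ a little from fitted folds, whose errors are SE. Positions and exon lengths are from GENCODE M21 (all 96 matched). Total counts were 11514716 to 24390082; counting intervals cover counting error only. Replicates differed by more than sampling noise. Genes named were the 3 with the highest CPM per kilobase in each family, up to 12 per comparison with the largest fold among those that passed and reached 1 CPM in a group mean, and Cyp2e1; Ces2g, Cyp3a11, Cyp3a16 and Sult1e1 were chosen after their values were seen. The members and lists were chosen with earlier results of these data known. Alternatives were DESeq2 1.42.0, other scalings, no filter on low counts, other sample sets, each sample left out and a replicate block. The fits were tested on simulated counts with known changes.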

Additional observations from a re-analysis of the deposited data

Results flagged for a closer look

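More members had a genotype effect that differed between models by the interaction term than are listed here. The 24 values below are the 12 with the largest absolute difference in each of the contrasts, each with an edgeR adjusted p under 0.05. Between colitis and CAC (log2 effect in CAC minus that in colitis), the differences were -5.41 for Ces2c, -4.74 for Ces2e, -4.62 for Ces2a, -7.12 for Ces2b, -4.62 for Sult1d1, -6.77 for Ugt1a1, -4.17 for Ugt1a6a, -6.57 for Cyp2e1, -3.84 for Cyp2d26 and -3.83 for Cyp2d9. Ugt2b5 (-9.37) and Ugt2b36 (-8.37) had at most 2 counts over the RNF138-/- tumors, so their fitted sizes depend on the prior count. Between CAC and organoids (effect in organoids minus that in CAC), the differences were 6.04 for Cyp2d9, 4.79 for Ces2c, 4.65 for Cyp2s1, 4.21 for Cyp2d12, 4.04 for Cyp3a13, 3.99 for Ces2e, 3.94 for Ugt1a7c, 3.88 for Sult1d1, 3.68 for Sult1a1, 3.51 for Cyp2d34, 3.45 for Cyp2j9 and -3.42 for Ces1c. In the first set, Ces2b was at 1.62, 26.7 and 47.3 CPM in RNF138-/- colitis and 8.25, 1.69 and 33.5 CPM in control CAC. Cyp2d26, a P450 of the chromosome 15 cluster, was at 13.5, 28.9 and 72 CPM in RNF138-/- colitis and 10.3, 11.4 and 41.5 CPM in control CAC. Both were highest in the samples low in distal colon markers. Without those 3 samples Ces2a, Ces2b, Cyp2d26, Cyp2e1, Ugt1a6a, Ugt1a1, Ugt2b5 and Ugt2b36 no longer passed, and Ces2c, Ces2e, Sult1d1 and Cyp2d9 did.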

How the results depend on the processing

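The count of members that passed for genotype in CAC (13) became 30 with no filter on low counts, 36 by DESeq2 and 39 with all 18 samples; that in colitis (1) became 6, 4 and 0. For CAC against colitis in control mice (9) it became 4 with only the groups contrasted and 18 without the 3 samples low in distal colon markers, and for the difference of genotype effects between CAC and colitis (33) it became 17 without those samples. Leaving out 1 sample at a time gave 0 to 19 for genotype in CAC, 0 to 3 for colitis, 9 to 19 for organoids, 4 to 18 and 44 to 49 for CAC against colitis in control and RNF138-/- mice, 36 to 44 and 25 to 27 for organoid against CAC, and 20 to 35 and 22 to 32 for the differences of effects. No share of all genes is given beside the counts of this section, so they describe the members alone. Without the 3 samples, which leaves 1 RNF138-/- colitis sample assumed to vary like the others, Ugt1a1 changed sign, to 1.24 for CAC against colitis in RNF138-/- mice and 1.64 for the difference of genotype effects. For the single enzymes, 1196 alternative values kept their direction and side of the threshold, 134 fell short of it, 4 newly passed it (all Cyp2e1 in CAC) and 2 changed sign. Scaling by total count alone changed the split of the difference of genotype effects between organoids and CAC from 21 higher and 7 lower to 17 and 11. The cause was not tested. Depth limits the 33 members under 1 CPM in every group.

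Samples share replicate numbers across genotypes. Deviations of same-numbered samples correlated by 0.172, 0.057 and 0.381 for colitis, 0.032, 0.179 and 0.060 for CAC and -0.114, -0.041 and 0.030 for organoids. The same-numbered RNF138-/- sample was the best match of control CAC samples 1, 2 and 3 and control colitis sample 3, but not of the other controls. Whether the numbers pair the samples is therefore uncertain. With the replicate block the calls numbered 1, 18 and 14 for genotype in colitis, CAC and organoids, 8 and 46 for CAC against colitis in control and RNF138-/- mice, 42 and 26 for organoid against CAC, and 31 and 30 for the differences of effects.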

Other observations

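Several enzymes were uneven among the samples of a group. In RNF138-/- colitis sample 3, Cyp3a44, Cyp3a25, Ugt1a1 and Ugt2b5 were at 24.9, 6.5, 10.4 and 39.99 CPM. In control CAC sample 3, Ugt1a1 and Ugt2b5 were at 8.99 and 31.2 CPM, while Cyp3a44 and Cyp3a25 were both at 0.284 CPM. The 6 measured small intestine markers summed to 41.4, 97.9 and 1161 CPM in the control tumors, sample 3 last, and to 982, 645 and 532 CPM in RNF138-/- colitis against 384 to 548 CPM in control colitis. Ces1a, a carboxylesterase with a mean of at most 0.166 CPM in any tissue group, was at 0.98, 0.239 and 1.15 CPM in control and 1.12, 1.38 and 0.896 CPM in RNF138-/- organoids. Sult5a1, a little-studied sulfotransferase, was at 0.16, 0.283 and 0.453 CPM in RNF138-/- tumors and 2.32, 2.86 and 2.02 CPM in RNF138-/- organoids.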
